A study of Homo sapiens with 8 samples.

Results

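ATP-binding cassette (ABC) transporter genes were followed across 4 groups of HCT-116 cells. HCT-116 is an established line from a human colorectal carcinoma. The members are all non-control probes whose gene name in the scanner files starts with ABC, a subfamily letter from A to G and a number. This gave 75 probes of 49 genes, out of 50599 probes of 36337 gene name entries on the array. The family was selected on a measured value, because ABCG2 had the largest difference of all entries between R50 and WT cells. That difference, and every other R50 value of ABCG2, is therefore given below as a description with no test. RNA was measured on 8 one-colour Agilent arrays, 2 for each group. WT cells are the parental line, untreated. WT+NU6102 cells are the parental line given 20 µM NU6102, an inhibitor of CDK1 and CDK2, for 24 h. CDK2 KO cells are an untreated HCT-116 line without CDK2 (CDK2-/-), purchased with its parental line. R50 cells are a resistant population that came through selection in NU6102 and was kept in 50 µM of it. All 4 groups are of 1 cell line, and whether the CDK2 KO and R50 lines are each 1 clone is not given in the sources used here. Nothing says that duplicates came from separate cultures beyond their being called biological replicates, so the p-values measure the spread between these samples, which may be technical.

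ABC transporters bind and hydrolyse ATP in paired cytosolic domains and use the cycle to move substrates across a membrane. In cultured tumour cells the best known are the plasma membrane efflux pumps P-glycoprotein (ABCB1), the multidrug resistance proteins (ABCC genes) and the breast cancer resistance protein (ABCG2), which export many drugs and kinase inhibitors. Other members move lipids and sterols, act inside mitochondria, peroxisomes and lysosomes, gate potassium channels, or, in subfamilies E and F, carry the ATP-binding domains without a membrane part and work in translation.

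Signals are the scanner's background-subtracted intensities on the log2 scale less the 75th percentile of their array, so a value of 0 is the level of that percentile, and a level says nothing about one probe against another. A probe was tested where some group had it well above background on each of its arrays, which held for 51 of the 75 probes and 33 of the 49 genes. All 8 arrays detected 44 of the 75 probes, no array detected 18, and 11 genes had no probe above background on any array. Each gene is given by its brightest tested probe. A difference was called where limma's Benjamini-Hochberg adjusted p over all 28677 tested probes was under 0.05 and the absolute log2 fold change was at least 1. Between 32376 and 36206 spots of an array were well above background. The CDK2 probe, a check of the knockout label, read −1.56 and −1.51 on the CDK2 KO arrays and −0.76 on each WT array. The deleted part of the gene is not given in the sources used here, so this probe may lie outside it. The epithelial label held, with 6 of 8 epithelial markers above background on all arrays and EPCAM at a mean of 6.21 in WT cells. Of the markers of other cell types, 2 of 3 endothelial, 2 of 4 leukocyte and 1 of 6 fibroblast genes were above background on all arrays, while COL1A2, COL3A1, LUM and PDGFRB were so on none. The log2 of the summed signal ran from 9.10 to 9.76 over the arrays for the epithelial list, −3.07 to −1.35 for fibroblast, −0.98 to −0.04 for leukocyte and −1.57 to −1.23 for endothelial genes. Their part in the results was not tested. WT and WT+NU6102 were hybridized on slide 2, CDK2 KO and R50 on slide 1. The comparison of R50 with CDK2 KO and that of WT+NU6102 with WT thus stay within a slide, and in the others slide and group cannot be told apart.

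Past the minimum fold, the ABC genes called after 24 h of NU6102 were all lower, as most called entries of the whole array were. Between WT+NU6102 and WT, 5 of the 33 tested ABC genes fell (15.2%, beside 5.17% of all 21595 tested entries), namely ABCA12, ABCC3, ABCC6, ABCC8 and ABCD3. Of these, 4 were well above background in both groups and ABCC8 was not. No member rose (beside 1.13% of all entries), and ABCB10 with a log2 fold change of 0.98 was closest. Limma placed 10 of the members higher and 11 lower at an unadjusted p under 0.05, and a t-test also called none higher. Without the minimum fold 10 members were higher and 10 lower at an adjusted p under 0.05, and with a normexp background correction ABCC3 alone stayed called, with ABCA12 at −0.94, ABCC6 at −0.96, ABCD3 at −0.90 and ABCC8 at −0.27. In CDK2 KO cells 4 members rose against WT (beside 2.45%), namely ABCA12, ABCB1, ABCC2 and ABCC6, of which 3 were well above background in both groups and ABCB1 was not, and 2 fell (beside 2.23%), namely ABCB6 and ABCD3. Between R50 and WT, 4 members were past the thresholds on the higher side (beside 1.72%), namely ABCG2, ABCC2, ABCB1 and ABCA12, and 0 on the lower side (beside 0.912%), where 8 were lower at an adjusted p under 0.05 with smaller changes. Since this contrast selected the family, nothing is read from these counts. With ABCG2 in R50 left aside, since it selected the family, 0 members were called higher in R50 than in CDK2 KO cells by limma (beside 2.8%) and none by a t-test, with 10 members, ABCG2 included, higher at an unadjusted p under 0.05. ABCE1 was lower there (1 member, beside 2.31%). Between R50 and WT+NU6102, which differ in dose and in time, 6 members other than ABCG2 were higher (beside 7.5%), among them ABCA12, ABCB1, ABCC3, ABCC2 and ABCC6, and 5 of the 6 were well above background in both groups. On the lower side were ABCB10 and ABCF1 (2 members, beside 3.08%). The median log2 fold change of the 33 genes was −0.10 in WT+NU6102 and −0.03 in CDK2 KO cells against WT, beside 0.04 and 0.02 over all entries. Apart from ABCG2, 12 genes were called at least once and 20 never. The F-test among the 4 groups, which includes the selecting contrast, passed 14 of 33 at an adjusted p under 0.001 (beside 22.1% of all entries), a count of 4 to 9 on leaving out 1 array, 5 without the filter on dim probes and 9 with a replicate block. Comparisons share arrays, so their counts are not independent of each other.

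**Figure D1:**
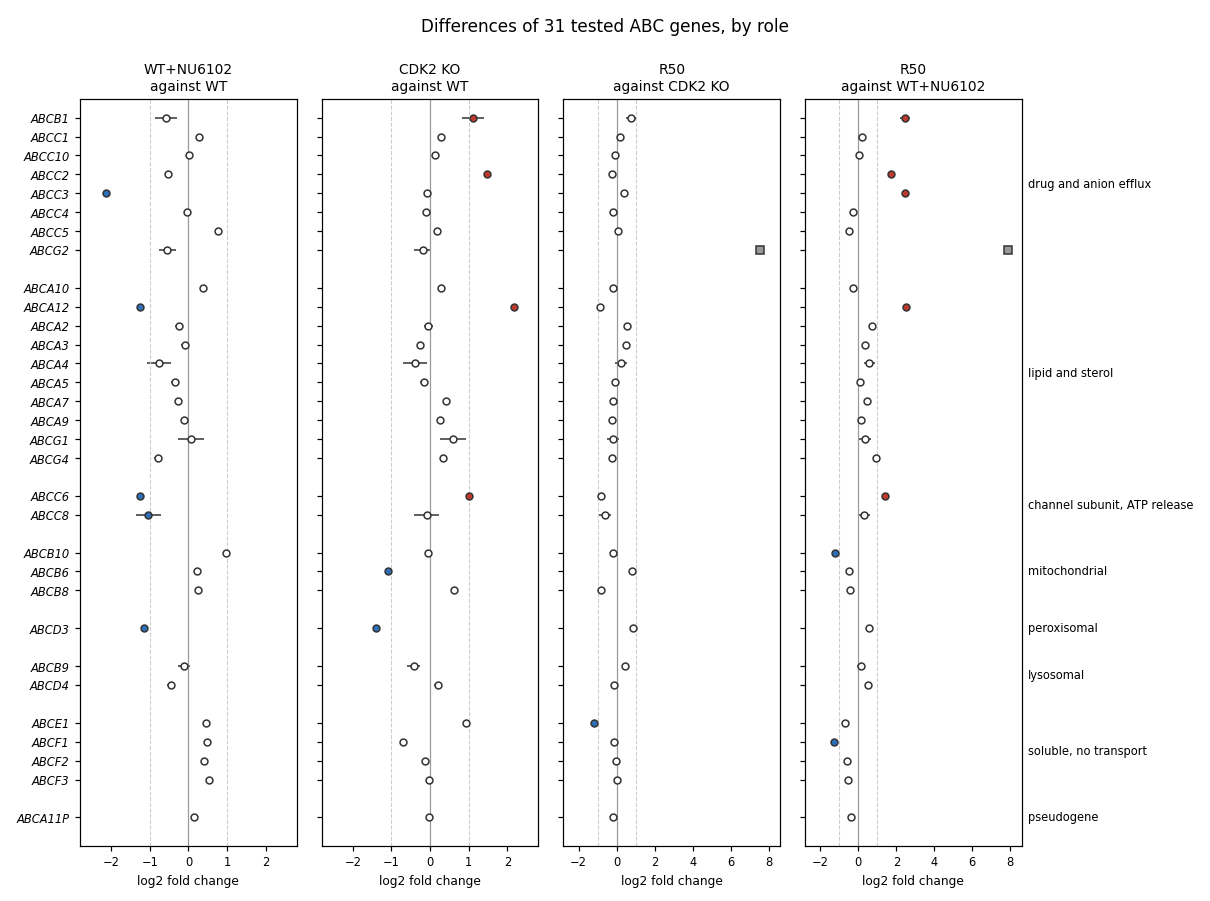
Log2 fold change (x axis) of 31 tested ABC genes (rows, grouped by role) in 4 comparisons (panels), with the standard error as a bar. Red points were called higher, blue points called lower and white points not called, dashed lines mark −1 and 1, and the grey squares are ABCG2 in R50, which has no test and lies far to the right of every other gene at 7.53 and 7.89.

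Among the efflux pumps, ABCG2 stood apart in R50 cells. Its probe (chr4:89011503-89011562 of hg19, minus strand) read −3.83 and −3.57 on the WT arrays, −4.20 and −4.29 on the WT+NU6102 arrays, −4.21 and −3.57 on the CDK2 KO arrays, and 3.71 and 3.57 on the R50 arrays. It was well above background on all 8, and both R50 values lay above the other 6. The R50 minus WT difference was 7.34 on the log2 scale (SE 0.21), or 162-fold, and 7.53 against CDK2 KO and 7.89 against WT+NU6102. Over the other ways of processing, the difference from WT ranged from 6.08 with a normexp background correction to 7.47, so the fold is less firm than the separation. Arrays measure bulk RNA, in which a change in a few cells and a change in all cells cannot be told apart. Against WT, ABCG2 did not pass the test in WT+NU6102 or in CDK2 KO cells. The log2 fold change was −0.55 in WT+NU6102 (SE 0.21, limma adjusted p = 0.0904) and −0.19 in CDK2 KO cells (SE 0.21, adjusted p = 0.548).

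The letters before the start are shown for ABCG2, ABCB1 and ABCC2. These are 3 of the 4 efflux genes past the thresholds on the higher side in R50 against WT+NU6102, and ABCC3 is not shown. The letters are the 250 bases before a RefSeq start of GRCh38.p14, 5′ to 3′ on the gene's strand. For ABCG2, with 5 listed starts, and ABCB1, with 2, the start shown is the most 3′ one with no other listed start in the 1000 bases before it, and the arrays do not tell which start was used. Capitals mark matches on either strand to any of 4 motifs. The AHR receptor core is GCGTG. The CCAAT box is named by its letters. The GC box is GGGCGG. TGANNNNGC, with any base at each N, was searched as a loose pattern for the core of the antioxidant response element. Whether a match fits a stricter form of that core was not tested.
ABCG2, chr4:88159291-88159540, minus strand: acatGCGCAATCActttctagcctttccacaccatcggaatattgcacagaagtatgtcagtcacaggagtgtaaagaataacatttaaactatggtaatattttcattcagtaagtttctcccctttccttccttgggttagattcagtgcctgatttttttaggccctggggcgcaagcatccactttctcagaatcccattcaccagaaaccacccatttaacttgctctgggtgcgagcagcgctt
ABCB1, chr7:87600885-87601134, minus strand: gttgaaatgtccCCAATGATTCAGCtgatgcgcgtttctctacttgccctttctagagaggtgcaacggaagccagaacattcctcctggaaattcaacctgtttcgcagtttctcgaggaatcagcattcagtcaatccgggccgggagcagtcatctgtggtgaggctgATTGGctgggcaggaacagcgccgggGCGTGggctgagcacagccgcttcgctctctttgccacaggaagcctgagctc
ABCC2, chr10:99782390-99782639, plus strand: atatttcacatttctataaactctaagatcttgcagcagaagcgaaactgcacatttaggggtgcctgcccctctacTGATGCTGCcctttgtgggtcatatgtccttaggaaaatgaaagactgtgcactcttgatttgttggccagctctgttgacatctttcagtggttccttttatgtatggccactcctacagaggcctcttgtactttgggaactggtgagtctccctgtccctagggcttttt
The ABCG2 window held 1 match to TGANNNNGC and 0 to the others. The ABCB1 window held 1 match to TGANNNNGC, 2 to CCAAT and 1 to GCGTG, and one CCAAT shares a base with the TGANNNNGC match. The ABCC2 window held 1 match to TGANNNNGC. Of all 35116 windows of this length, 35.2% hold TGANNNNGC, 32.2% GCGTG, 32% CCAAT and 42.6% GGGCGG, so each of these matches is common, and a match describes letters only. Of the 49 members 35 have a window in the table.

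ABCB1, which encodes P-glycoprotein, was near the detection limit. Its probe read −5.31 and −6.18 on the WT arrays and −6.50 and −6.13 on the WT+NU6102 arrays, none of them well above background. It read −4.66 and −4.60 in CDK2 KO and −3.90 and −3.81 in R50 cells, all well above background. Every CDK2 KO and R50 value lay above every WT and WT+NU6102 value, on the other slide. Because WT gives only a bound, the level was at least 1.25-fold higher in CDK2 KO than in WT cells and at least 2.13-fold higher in R50, taking for the dim arrays the higher of the probe's own signal and the lowest signal well above background there. The probe passed the filter only through the CDK2 KO and R50 arrays, where it was high, so the fit against WT (limma adjusted p = 0.0346 for CDK2 KO, measured difference 1.11) rests on an undetected WT level. This call did not survive leaving out any array other than the first WT array, with 0.68 to 1.55 on the probe given here. Without the second R50 array another ABCB1 probe passed the filter and stood for the gene, at 0.51. The call held in 4 of 17 other fits in all. R50 exceeded WT+NU6102 at least 2.15-fold (measured difference 2.46, SE 0.29, adjusted p = 0.000987), and a normexp background correction gave 0.61 in place of 2.46. That fit likewise rests on an undetected level, here of WT+NU6102. Against CDK2 KO on the same slide the R50 difference was 0.77 (SE 0.29, adjusted p = 0.0907).

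ABCC2, an apical exporter of conjugated organic anions, was bright in all groups. It read 2.55 and 2.61 in WT, 2.09 and 2.01 in WT+NU6102, 4.06 and 4.06 in CDK2 KO and 3.75 and 3.84 in R50. No pair of groups overlapped. CDK2 KO cells had 2.78-fold more signal than WT (log2 fold change 1.48, SE 0.06, limma adjusted p = 0.000101). The R50 difference was 1.21 from WT, given as a description, and 1.75 from WT+NU6102 (SE 0.06, adjusted p = 2.72e-05). The 24 h treatment went the other way by less than the minimum (−0.53, SE 0.06, adjusted p = 0.00128), and so did R50 against CDK2 KO (−0.26, SE 0.06, adjusted p = 0.0209). The second tested probe of ABCC2 was well above background on the CDK2 KO arrays alone and gives no measured difference between the other groups.

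ABCC3, a basolateral exporter of conjugates and bile salts, had the largest fall of any member after 24 h of NU6102. It read 2.62 and 2.54 in WT, 0.49 and 0.41 in WT+NU6102, 2.51 and 2.48 in CDK2 KO and 2.96 and 2.85 in R50. The WT+NU6102 arrays lay below all others, and the R50 arrays lay above those of WT and CDK2 KO by less. The fall was 4.38-fold (log2 fold change −2.13, SE 0.06, limma adjusted p = 8.54e-05) and was called in 18 of 19 other fits, the exception being the one that took the other tested probe. R50 cells exceeded WT+NU6102 cells by 2.46 (SE 0.06, adjusted p = 1.7e-05). On the other tested probe that excess was 0.51 (SE 0.06, adjusted p = 0.00124), under the minimum and not called. On the brightest probe the R50 difference from CDK2 KO was 0.41 (SE 0.06, adjusted p = 0.00559), under the minimum. The other tested probe of ABCC3 did not show the fall. That probe (chr17:48745220-48745279 of hg19) read 1.03 and 0.93 in WT and 0.99 and 1.07 in WT+NU6102, a difference of 0.05 (SE 0.06, adjusted p = 0.592), whereas the probe with the fall lies further 3′ (chr17:48768701-48768760).

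ABCC1, ABCC4, ABCC5 and ABCC10, which export glutathione conjugates, cyclic nucleotides and drugs, were called in no comparison. ABCC5 came closest after treatment. It read 0.57 and 0.37 in WT, 1.22 and 1.22 in WT+NU6102, 0.67 and 0.61 in CDK2 KO and 0.74 and 0.72 in R50, with WT+NU6102 above the other 6 arrays by less than the minimum fold (0.75, SE 0.07, limma adjusted p = 0.00082). Of its other probes 1 gave −0.13. ABCC1 read −0.26 and −0.20 in WT, 0.06 and 0.02 in WT+NU6102, −0.01 and 0.09 in CDK2 KO and 0.19 and 0.27 in R50. Both WT arrays were the lowest, with log2 fold changes of 0.27 in WT+NU6102 (SE 0.06, adjusted p = 0.0148) and 0.27 in CDK2 KO (SE 0.06, adjusted p = 0.0215). ABCC4 read −1.15 and −1.30 in WT, −1.24 and −1.27 in WT+NU6102, −1.41 and −1.27 in CDK2 KO and −1.50 and −1.52 in R50. Its WT, WT+NU6102 and CDK2 KO arrays overlapped, with log2 fold changes of −0.03 (SE 0.08, adjusted p = 0.797) and −0.11 (SE 0.08, adjusted p = 0.304). ABCC10 differed by −0.07 to 0.13 over the 5 comparisons. ABCB5, ABCC11 and ABCC12 were not tested, and the ABCC11 probe was not well above background on any array.

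**Figure D2:**
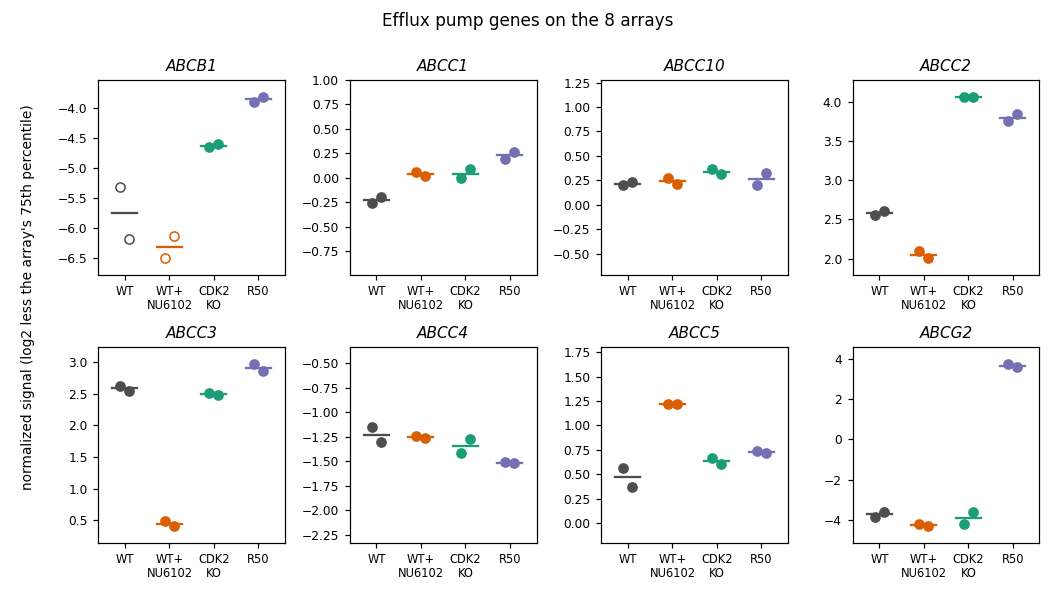
Normalized signal (y axis, log2 less the 75th percentile of each array) of the 8 tested efflux genes (panels) in the 4 groups (x axis). Each point is 1 array and each bar the group mean, and open points mark groups not well above background on both arrays. ABCG2 is at 3.57 and 3.71 in R50 and below −3.5 elsewhere, ABCC3 is low only in WT+NU6102, and ABCC2 is high in CDK2 KO and R50. The y scales differ between panels.

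The lipid and sterol transporters were the largest group, with 18 genes on the array, 10 of them tested. ABCA12, which loads lipids into secretory granules of the skin, was called in 4 of 5 comparisons. It read −1.27 and −1.14 in WT, −2.44 and −2.46 in WT+NU6102, 0.95 and 0.99 in CDK2 KO and 0.10 and 0.06 in R50. The 4 groups did not overlap, in the order WT+NU6102, WT, R50, CDK2 KO. The 24 h treatment lowered it 2.36-fold (log2 fold change −1.24, SE 0.06, limma adjusted p = 0.000152), or −0.94 with a normexp correction, under the minimum. CDK2 KO cells had 4.53-fold more than WT (2.18, SE 0.06, adjusted p = 3e-05), the largest rise of a member there. R50 cells lay between them, 1.29 above WT as a description, 2.53 above WT+NU6102 (SE 0.06, adjusted p = 1.6e-05) and 0.89 below CDK2 KO on the same slide (−0.89, SE 0.06, adjusted p = 0.000359), under the minimum.

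The other 9 tested genes of this group were called nowhere and spanned log2 fold changes from −0.79 to 0.91. Both ends of that range were ABCG4, a sterol exporter, at −0.79 for WT+NU6102 against WT (SE 0.09, limma adjusted p = 0.00149) and 0.91 for R50 against WT+NU6102 (SE 0.09, adjusted p = 0.000606). ABCA7 was 0.28 below WT after treatment (−0.28, adjusted p = 0.00539) and 0.40 above it in CDK2 KO cells (adjusted p = 0.00267). ABCG1, which exports cholesterol to lipoprotein particles, read −4.61 and −4.21 in WT and −4.71 and −3.97 in WT+NU6102, arrays that overlapped (0.07, SE 0.34, adjusted p = 0.879). ABCA9, ABCA10, ABCA2, ABCA3 and ABCA5 stayed within −0.36 and 0.73, and the dim ABCA4 was well above background on the WT arrays alone. The 2 probes of ABCA1, the transporter that lipidates apolipoproteins, were not well above background on any array, and ABCA6, ABCA8, ABCA13, ABCB4, ABCB11, ABCG5 and ABCG8 were not tested either.

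ABCC6 and ABCC8 were the tested genes of a small group of channel subunits and an ATP-release protein, and both fell after 24 h. ABCC6, which promotes release of ATP from liver cells, read −0.67 and −0.79 in WT, −1.99 and −1.95 in WT+NU6102, 0.27 and 0.29 in CDK2 KO and −0.46 and −0.64 in R50. R50 and WT lay close together, below CDK2 KO and above WT+NU6102. The fall after treatment was 2.36-fold (log2 fold change −1.24, SE 0.08, limma adjusted p = 0.000246), or −0.96 with a normexp correction, under the minimum. In CDK2 KO cells ABCC6 rose by 1.02 (SE 0.08, adjusted p = 0.000626), close to the minimum, and without the second WT array the value was 0.96. R50 exceeded WT+NU6102 by 1.42 (SE 0.08, adjusted p = 8.22e-05) and differed from CDK2 KO by −0.84 (SE 0.08, adjusted p = 0.00101). Of the other ABCC6 probes 1 was detected above background by every array, giving −0.77 after treatment (adjusted p = 0.00152) and 0.40 in CDK2 KO cells (adjusted p = 0.024), both under the minimum. The other two were not well above background on every WT and WT+NU6102 array. These probes may also bind RNA of near-identical ABCC6 pseudogene copies, so the gene's own share is uncertain.

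ABCC8, the sulfonylurea receptor, was dim. It read −3.93 and −4.42 in WT, −4.99 and −5.43 in WT+NU6102, −4.10 and −4.43 in CDK2 KO and −5.28 and −4.50 in R50. Both WT+NU6102 arrays were below background, so WT was at least 1.72-fold higher (measured log2 fold change −1.03, SE 0.32, limma adjusted p = 0.0462). The call held in 7 of 18 other fits and ended on leaving out any WT, WT+NU6102 or CDK2 KO array, with values from −1.28 to −0.79. ABCC9 was not tested.

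**Figure D3:**
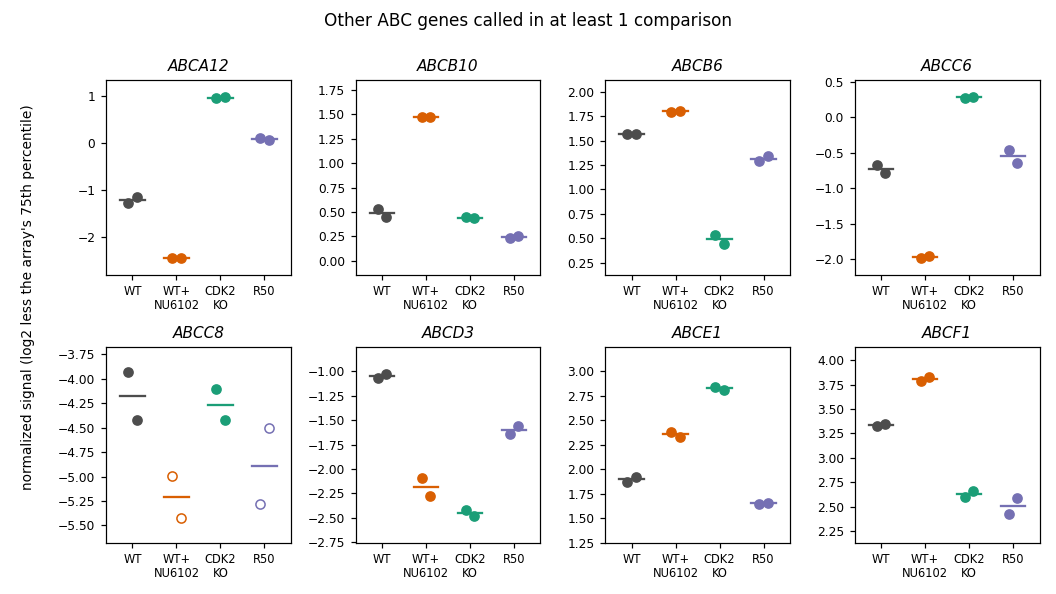
Normalized signal (y axis, log2 less the 75th percentile of each array) of 8 called ABC genes outside the efflux group (panels) in the 4 groups (x axis). Points are arrays, bars are group means, and open points mark groups not well above background on both arrays. ABCA12 and ABCC6 are lowest in WT+NU6102 and highest in CDK2 KO, and ABCF1 and ABCB10 are highest in WT+NU6102. The y scales differ between panels.

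Of the mitochondrial members, ABCB6 and ABCB10 were called, in 1 comparison each. ABCB6, a porphyrin transporter, read 1.57 and 1.57 in WT, 1.80 and 1.80 in WT+NU6102, 0.54 and 0.45 in CDK2 KO and 1.29 and 1.34 in R50. CDK2 KO stood lowest, and its signal fell 2.12-fold from WT (log2 fold change −1.08, SE 0.05, limma adjusted p = 0.000154) with the call kept in all 18 other fits. R50 was 0.83 above CDK2 KO on the same slide (SE 0.05, adjusted p = 0.000301). ABCB10, which supports haem synthesis, read 0.53 and 0.45 in WT, 1.47 and 1.47 in WT+NU6102, 0.44 and 0.43 in CDK2 KO and 0.23 and 0.26 in R50. WT+NU6102 stood above the other 6 arrays, by 0.98 from WT (SE 0.05, adjusted p = 0.00016), just under the minimum and past it without the first WT array (1.02). R50 was 2.34-fold below WT+NU6102 (−1.22, SE 0.05, adjusted p = 4.02e-05), and the other ABCB10 probe gave −1.14. ABCB8 was 0.61 above WT in CDK2 KO cells (SE 0.06, adjusted p = 0.00126), but its other probe gave −0.15.

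ABCD3, a peroxisomal transporter of fatty acids, gave values that depended on the probe. Its brightest probe read −1.07 and −1.03 in WT, −2.09 and −2.28 in WT+NU6102, −2.42 and −2.48 in CDK2 KO and −1.64 and −1.56 in R50. The groups did not overlap. It fell 2.20-fold after treatment (log2 fold change −1.14, SE 0.08, limma adjusted p = 0.000316, or −0.90 with a normexp correction) and 2.65-fold in CDK2 KO cells (−1.40, SE 0.08, adjusted p = 0.000248). R50 was 0.85 above CDK2 KO (SE 0.08, adjusted p = 0.00101) and 0.58 above WT+NU6102 (SE 0.08, adjusted p = 0.00166). A dimmer second probe (chr1:94941224-94941283 of hg19, the first at chr1:94944201-94944260) gave 0.02 after treatment (SE 0.09, adjusted p = 0.891), −0.38 in CDK2 KO (SE 0.09, adjusted p = 0.0305) and −0.18 for R50 against CDK2 KO. For R50 against WT+NU6102 that second probe gave −0.58 (SE 0.09, adjusted p = 0.00372), opposite in sign to the first. ABCD2 was not tested. The 3 peroxisome biogenesis genes PEX3, PEX16 and PEX19, which insert membrane proteins into peroxisomes, did not reach the minimum fold anywhere, at 0.51, 0.31 and 0.23 after treatment (adjusted p = 0.00574, 0.00493 and 0.0101).

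**Figure D4:**
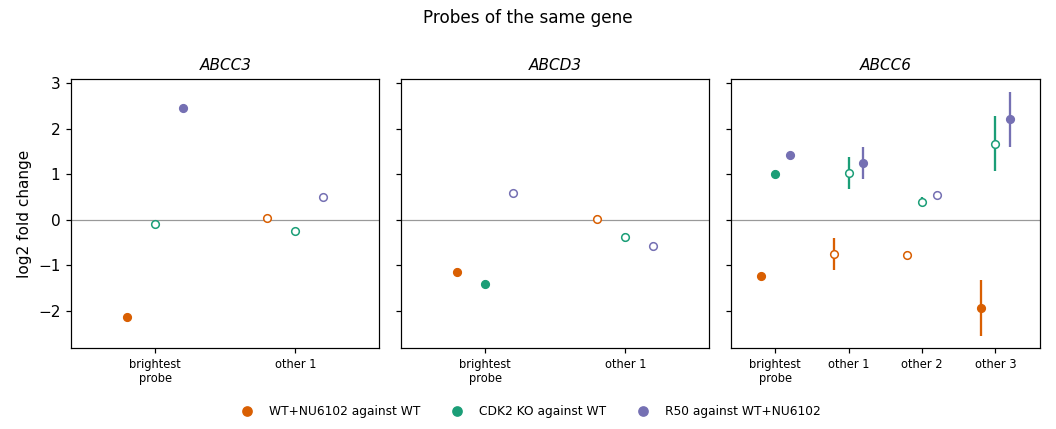
Log2 fold change (y axis, bars are standard errors) of each tested probe (x axis) of 3 ABC genes in 3 comparisons (colours), filled where called and open where not. In ABCC3 the brightest probe is at −2.13 after treatment and the other at 0.05, and in ABCD3 they are at −1.14 and 0.02, while the ABCC6 probes are shown with 2 of 4 that were not well above background on every array.

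Of 13 tested ABC genes with more than 1 tested probe, 4 had all probes on the same side of 0 in all 5 comparisons, and the other 20 tested genes rested on 1 probe. Whether probes of a gene see different transcripts was not tested, and no exon annotation of hg19 was used here.

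The soluble members, which do not transport, all had positive differences after treatment, each under the minimum. ABCE1, ABCF1, ABCF2 and ABCF3, which act in ribosome recycling and in translation, had log2 fold changes of 0.46, 0.47, 0.41 and 0.54 in WT+NU6102 against WT (limma adjusted p = 0.00106, 0.0031, 0.00271 and 0.000441). Each also had a negative difference for R50 against WT+NU6102. ABCF1 was called there. It read 3.32 and 3.35 in WT, 3.78 and 3.83 in WT+NU6102, 2.60 and 2.67 in CDK2 KO and 2.43 and 2.59 in R50. WT and WT+NU6102, on slide 2, lay above CDK2 KO and R50, on slide 1. R50 was 2.46-fold below WT+NU6102 (−1.30, SE 0.07, adjusted p = 7.72e-05), and CDK2 KO was 0.70 below WT (−0.70, SE 0.07, adjusted p = 0.00143). ABCE1 read 1.87 and 1.92 in WT, 2.38 and 2.33 in WT+NU6102, 2.84 and 2.81 in CDK2 KO and 1.65 and 1.66 in R50. CDK2 KO was the highest group and R50 the lowest. On their shared slide R50 was 2.26-fold below CDK2 KO (−1.18, SE 0.05, adjusted p = 9.62e-05), a call kept in all 19 other fits and by the other ABCE1 probe (−1.11). CDK2 KO was 0.93 above WT (SE 0.05, adjusted p = 0.000214). ABCF2 and ABCF3 differed from WT by −0.13 (adjusted p = 0.157) and −0.04 (adjusted p = 0.543) in CDK2 KO cells.

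The lysosomal genes ABCB9, a peptide transporter, and ABCD4, which takes part in vitamin B12 export, spanned −0.46 to 0.52 and were not called. The lowest value was ABCD4 after treatment (−0.46, SE 0.10, limma adjusted p = 0.0139). The transcribed pseudogene ABCA11P spanned −0.37 to 0.14, and the pseudogenes ABCA17P, ABCC13 and ABCC6P1 were not tested.

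Members also lie near each other in the genome. By the hg19 probe positions 21 of the 49 genes have another member within 1 Mb, in 18 pairs, 7 of them with both genes tested. Of these 7 pairs, 5 had no call in either gene, where 20 of the 33 tested genes were never called. Pairs among ABCA5, ABCA9 and ABCA10 share genes, so the pairs are not independent of each other. ABCC1 and ABCC6 lie 61 kb apart on chromosome 16, and in CDK2 KO cells ABCC6 rose by 1.02 while ABCC1 was at 0.27, and the difference between the genes was not tested. In the chromosome 17 cluster, ABCA5, ABCA9 and ABCA10 were at −0.36, −0.10 and 0.37 after treatment. ABCC5 and ABCF3, 230 kb apart on chromosome 3, were at 0.75 and 0.54 there.

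Receptors that regulate ABC genes, and their other targets, were read beside the family. Of 15 tested of 20 such receptors and factors, 1 was called higher in R50 than in CDK2 KO cells (beside 2.8% of all entries). It was AHR, the receptor for aryl hydrocarbons, at 1.20 (SE 0.06, limma adjusted p = 0.000141), and 1.16 above WT as a description. Between R50 and WT+NU6102, 1 was called higher (beside 7.5%), RXRA by 1.0 (SE 0.06, adjusted p = 0.000117). Of 7 tested AHR target genes 3 rose after 24 h of NU6102 (beside 1.13% of all entries), with CYP1A1, an oxidase of aryl hydrocarbons, at 1.79 (SE 0.15, adjusted p = 0.000492) and CYP1B1 at 1.26 (SE 0.12, adjusted p = 0.000776). AHRR, the repressor of the receptor, was 2.01 higher in R50 than in CDK2 KO (SE 0.28, adjusted p = 0.00403), with 1 of the CDK2 KO arrays below background. In that comparison 2 AHR targets were called higher (beside 2.8%). Between R50 and WT+NU6102, 1 AHR target was called higher (beside 7.5% of all entries) and 2 lower (beside 3.08%). The lower ones were CYP1B1 at −1.81 (SE 0.12, adjusted p = 0.000143) and CYP1A1 at −1.06 (SE 0.15, adjusted p = 0.002). Among 10 tested targets of NFE2L2, the oxidative stress factor, 2 rose after treatment (beside the same 1.13%). They were OSGIN1, by 1.37 (SE 0.09, adjusted p = 0.000298), and SRXN1, by 1.04 (SE 0.06, adjusted p = 0.000187). In R50 against CDK2 KO 1 was called higher (beside 2.8%), the cystine carrier SLC7A11 by 1.44 (SE 0.08, adjusted p = 0.000184). Of 6 tested targets of the sterol-sensing LXR receptors, 1 fell after treatment (beside 5.17% of all entries). It was SREBF1, by 1.58 on the log2 scale (SE 0.05, adjusted p = 8.54e-05). In CDK2 KO cells 1 rose against WT (beside 2.45%), SMPDL3A by 1.54 (SE 0.08, adjusted p = 0.000195). SMPDL3A was also the 1 target called lower in R50 than in CDK2 KO (beside 2.31%), at −1.45 (SE 0.08, adjusted p = 0.000203).

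Drug and nutrient carriers of other families were compared as well, with 9 of 15 tested. In CDK2 KO against WT 1 was called higher (beside 2.45% of all entries) and 1 lower (beside 2.23%). In R50 against CDK2 KO 1 was called higher (beside 2.8%). Between R50 and WT+NU6102, 2 were called higher (beside 7.5%) and 1 lower (beside 3.08%). SLC15A1, a peptide carrier, was not well above background in CDK2 KO cells, and WT exceeded it at least 18.5-fold and R50 at least 20.3-fold (limma adjusted p = 1.72e-05 and 1.84e-05). SLCO1B3, an organic anion uptake carrier, was at least 2.36-fold higher in CDK2 KO than in WT cells, where no array was above background (adjusted p = 0.000264, resting on that undetected level). SLC29A1, a nucleoside carrier, was 1.06 lower in R50 than in WT+NU6102 (−1.06, SE 0.08, adjusted p = 0.000188). Of the 3 ABC proteins with other symbols, TAP1 and TAP2, the peptide pumps of antigen presentation, were tested. They were at −0.74 and −0.89 in CDK2 KO cells against WT (adjusted p = 0.000456 and 0.000697) and at −0.34 and −0.60 after treatment (adjusted p = 0.00321 and 0.00141), in each case under the minimum fold.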

How the data were processed

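RNA of 8 samples was labelled with Cy3 and hybridized singly to Agilent arrays of 60-base probes. The authors deposited, per the file headers, 1 intensity for each spot made with Agilent Feature Extraction 11.5.1.1 (background subtracted, not normalized between arrays), and log2 values of 28719 probes processed with GeneSpring GX, which were used only as an alternative. Columns of the authors' own fold changes were not used.

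Control spots and spots flagged as outliers were left out, spots of a probe were averaged, and each array's 75th percentile was subtracted from the log2 signal. No spot was saturated. Limma 3.58.1 (R 4.3.3) fitted the 4 groups together, with 2 arrays each and two-sided tests. Precision is limited by having 2 arrays a group. The fit was tested on simulated data. The members, gene lists and tests were chosen with earlier results of these data known. Named in full are ABCG2, ABCB1, ABCC1 to ABCC5 and every tested member called in any of 5 comparisons, except members that are counted but not reported here by name, and from the other lists at most 3 genes each, those with the largest change among called genes, apart from TAP1, TAP2 and the PEX genes, which were named after their values were seen. The replicate numbers of the labels did not pair the samples: deviations of same-numbered arrays correlated at −0.03 to 0.05.

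Alternatives were the authors' processed values, quantile normalization, normexp (offset 50) for the background, dim probes kept or filtered more strictly, a replicate block, a trended prior variance, no minimum fold change, the median probe of a gene (lower and, added after seeing the data, upper of the middle 2), the methods' t-test and ANOVA, each slide alone and leaving out each array. RefSeq promoter windows (GRCh38.p14) were matched by symbol. Probe positions are on hg19. Protein sequences were not used here. Figures were drawn with matplotlib 3.10.9.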

Additional observations from a re-analysis of the deposited data

How the results depend on the processing

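Of 75 values of 15 named genes over the 5 comparisons, 25 were past the thresholds, those of ABCG2 in R50 included as a description, and 23 of these kept their sign under every alternative tried. The planned median probe takes the lower of 2 probes and could not lose a fall, so the upper one was added after seeing the data. It gave 0.0463 for ABCC3 and 0.0186 for ABCD3 after treatment, opposite in sign to their called falls, 2 called members in place of 5 there, and −0.0269 for ABCC5 in R50 against CDK2 KO. It ended the calls of ABCC6 in both comparisons with WT and of ABCD3 in CDK2 KO cells. Uncalled values changed sign elsewhere, and those of ABCD3 were not near 0. With a normexp background correction the WT+NU6102 minus WT difference of ABCC4 was 0.000941, and with quantile normalization 0.0143. With the median probe of each gene the R50 minus CDK2 KO differences of ABCC5 and ABCD3 were −0.0269 and −0.18, in place of 0.095 and 0.85. The R50 minus WT+NU6102 difference of ABCD3 was −0.58 in place of 0.58. Leaving out 1 array at a time, ABCC4 after treatment ranged from −0.10 to 0.0489, CDK2 KO against WT ranged from −0.33 to 0.16 for ABCC8 and from −0.51 to 0.13 for ABCG2, and ABCC8 in R50 against WT+NU6102 ranged from −0.0704 to 0.71.

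Counts of called members moved in these cases. After treatment 1 member was called in place of 5 with a normexp correction, which with its offset shrinks the differences of dim probes. R50 against CDK2 KO gave 4 in place of 2 without a filter on dim probes. R50 against WT gave 0 with the methods' t-test and 4 with limma. Without a minimum fold change the counts were 20 for WT+NU6102 against WT, 14 for CDK2 KO against WT, 17 for R50 against WT, 15 for R50 against CDK2 KO and 25 for R50 against WT+NU6102. The F-test, with 14 members, gave 5 without the filter, 9 with the replicate block as a paired analysis and 4 to 9 on leaving out 1 array. The cause was not tested. The replicate block changed no other count by over 1.5 times, and ended the calls of ABCC8 after treatment (adjusted p = 0.0731) and of ABCB1 in CDK2 KO cells (adjusted p = 0.0603). On leaving out 1 array the counts were 4 to 5 for WT+NU6102 against WT, 4 to 6 for CDK2 KO against WT, 3 to 5 for R50 against WT, 2 to 3 for R50 against CDK2 KO and 9 to 11 for R50 against WT+NU6102. Of the 49 genes, 16 were too dim to test.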
